A study of Homo sapiens with 6 samples.

Results

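The ARHGAP and ARHGEF genes were followed across 3 human cell lines on 6 expression arrays. Members were all probe sets to which the platform annotation gave a single gene symbol beginning with ARHGAP or ARHGEF, without antisense and pseudogene symbols. That gave 157 probe sets of 55 genes, 32 ARHGAP and 23 ARHGEF, of 19775 genes on the array. One of the 55, ARHGAP22-IT1, is a noncoding transcript within ARHGAP22. Each gene was read from its brightest probe set by mean over the 6 arrays, and 48 members, 27 ARHGAP and 21 ARHGEF, were bright enough to test, of 13621 genes. The lines were TEM4-18 and TEM2-5, derived from PC-3 by passage through an endothelial layer in separate experiments, and PC-3 itself, a prostate cancer line from a bone metastasis. The endothelial cells were a human microvascular line from the lung, and each TEM line is 1 isolate. All 3 lines grew in DMEM/F12 with serum, no other treatment is named, and total RNA was taken with TRIzol and RNeasy. Each line had 2 arrays, which the labels do not say came from separate cultures, so p-values measure only the spread between arrays, which may be technical. The second TEM2-5 array carries replicate 1 in its source name, and its title, which says 2, was followed.

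RHOA, RAC1 and CDC42 are small GTPases, molecular switches that organise the actin cytoskeleton, cell junctions and cell movement. Guanine nucleotide exchange factors (GEFs) load them with GTP and turn them on, and GTPase-activating proteins (GAPs) speed GTP hydrolysis and turn them off. Crossing an endothelial layer involves protrusion, contraction and remodelled junctions, all of which these switches are known to control.

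The 5 members that passed the test in both TEM lines and changed at least 2-fold in TEM4-18 are shown by the 250 bases upstream of a RefSeq start (GRCh38.p14). CACCTG or CAGGTG, 1 E-box motif read on both strands, is the sequence that several zinc-finger repressors of epithelial genes are known to bind, and its copies are in capitals. The windows lie at chr1:3454415-3454664, plus strand for ARHGEF16, chr17:45432871-45433120, minus strand for ARHGAP27, chr11:129279519-129279768, minus strand for ARHGAP32, chrX:136780933-136781182, minus strand for ARHGEF6 and chr10:48656266-48656515, minus strand for ARHGAP22. Where a gene has several starts, the one farthest upstream is shown.
ARHGEF16: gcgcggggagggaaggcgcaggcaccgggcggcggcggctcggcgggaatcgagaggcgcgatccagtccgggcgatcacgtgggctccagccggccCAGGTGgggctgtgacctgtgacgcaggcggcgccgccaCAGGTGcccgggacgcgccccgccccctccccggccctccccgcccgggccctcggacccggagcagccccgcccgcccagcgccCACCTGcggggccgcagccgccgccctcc
ARHGAP27: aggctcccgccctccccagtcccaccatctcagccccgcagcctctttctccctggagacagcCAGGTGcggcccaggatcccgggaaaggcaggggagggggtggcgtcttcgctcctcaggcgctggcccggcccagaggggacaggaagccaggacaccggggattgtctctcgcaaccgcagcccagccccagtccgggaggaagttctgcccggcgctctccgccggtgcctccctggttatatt
ARHGAP32: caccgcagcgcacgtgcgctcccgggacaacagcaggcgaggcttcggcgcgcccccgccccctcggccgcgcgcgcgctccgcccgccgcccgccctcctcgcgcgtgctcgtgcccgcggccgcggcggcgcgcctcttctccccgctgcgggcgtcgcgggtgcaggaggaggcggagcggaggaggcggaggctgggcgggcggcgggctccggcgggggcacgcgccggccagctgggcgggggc
ARHGEF6: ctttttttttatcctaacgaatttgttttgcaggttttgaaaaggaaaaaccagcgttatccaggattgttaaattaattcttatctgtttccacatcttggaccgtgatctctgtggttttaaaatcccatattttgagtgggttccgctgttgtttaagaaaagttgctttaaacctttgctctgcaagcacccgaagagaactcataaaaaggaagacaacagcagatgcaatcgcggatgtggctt
ARHGAP22: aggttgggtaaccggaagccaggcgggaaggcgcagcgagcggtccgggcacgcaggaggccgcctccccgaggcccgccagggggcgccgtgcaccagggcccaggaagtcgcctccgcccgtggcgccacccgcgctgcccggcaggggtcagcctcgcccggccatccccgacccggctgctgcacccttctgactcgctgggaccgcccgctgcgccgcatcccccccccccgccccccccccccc

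The ARHGEF16 window held 3 copies, 153, 114 and 29 bases before the start. The ARHGAP27 window held 1 copy, 187 bases before the start, and the other 3 windows shown held none. At starts not shown, ARHGAP27 had another window with 1 copy, 109 bases before the start, and ARHGAP32 had a window with 1 copy, 93 bases before it. Among all 35116 RefSeq windows of this length, 17.5% held the motif and 0.46% held 3 or more copies. Of the 87 windows of members, available for 43 of the 55 genes, 16 (18.4%) held it. It was in 6 of 20 windows of members that fell in either TEM line and in 0 of 15 windows of members that rose. These windows differ in base composition, with a median GC content of 71.0% for the members that fell and 58.8% for those that rose, and a match is a description of the letters only.

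Signals on the arrays had medians of 266.9 to 316.9, and arrays of 1 line correlated at 0.976 to 0.980 over the tested probe sets. Simple epithelial markers were present in PC-3 and lower in TEM4-18 for 8 of 8 genes and in TEM2-5 for 7 of 8. E-cadherin (CDH1) had signals of 25.7 and 57.8 on the TEM4-18 arrays and 2519.8 and 2479 on the TEM2-5 arrays, against 14396 and 15147 on the PC-3 arrays. Of 14 endothelial markers, 6 passed the filter on low signals, and the summed signal of all 14 was 4528 to 5786 on TEM4-18 arrays and 4727 to 4943 on TEM2-5 arrays, against 3322 to 3629 on PC-3 arrays. Of those 6, 3 (KDR, ESAM and ROBO4) passed the test as higher in TEM4-18 and 2 in TEM2-5. PECAM1, EGFL7 and MMRN2 passed the filter but not the test in either comparison. Their log2 fold changes were -0.40, -0.51 and 0.61 in TEM4-18 and 0.08, -0.56 and 0.07 in TEM2-5. PECAM1 had 868 and 505 on the TEM4-18 arrays and 1042 and 850 on the TEM2-5 arrays, against 1073 and 736 on the PC-3 arrays. KDR, the VEGF receptor, had 1870.0 and 975 on the TEM4-18 arrays and 1243 and 1258 on the TEM2-5 arrays, against 306 and 146 on the PC-3 arrays. Among the markers below the filter, CDH5, EMCN, ERG, TEK and TIE1 stayed at or below 201 on every array. CLDN5 reached 210 and MMRN1 272 on PC-3 replicate 1. VWF had 301 and 54.5 on the TEM4-18 arrays and 76.1 and 40.2 on the TEM2-5 arrays, against 126 and 109 on the PC-3 arrays. None of the 14 markers was listed at 0. Of 4 prostate luminal markers on the array, KLK3 and TMPRSS2 passed the filter, and TMPRSS2 was higher in both TEM lines. KLK3 did not pass in limma, at 0.23 (adjusted p = 0.497) in TEM4-18 and 0.07 (0.866) in TEM2-5. KLK2 and FOLH1 were at 199 or less on every array. Of 7 leukocyte markers on the array, 3 passed the filter (ITGB2, CORO1A and CSF1R). Among the others, PTPRC and CD14 were at 140 or less on every array. LYZ reached 169 on a PC-3 array and CD3E 212 on a TEM4-18 array. ITGB2, an integrin subunit, was lower in both TEM lines. CORO1A, at 220 to 736, and CSF1R, at 115 to 326, did not pass the test in either comparison. The part of these shifts in the results that follow was not tested.

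Members differed between TEM4-18 and PC-3 in both directions, with ARHGEF16 and ARHGAP32 among those lower and ARHGEF6 and ARHGAP22 among those higher. In the limma fit, 18 of 48 tested members (37.5%) passed an adjusted p of 0.05, against 29.3% of all tested genes. Of these, 10 were higher, where the background was 13.3%, and 8 were lower, where it was 16.0%. At a fold of 2 or more, 2 members were higher (background 2.86%) and 4 were lower (background 5.83%). The median log2 fold change was -0.055 over members and -0.038 over all genes, and the median size was 0.463 over members and 0.283 over all genes. In TEM2-5 against PC-3, 12 of 48 (25%) passed, against 19.0% of all genes. Of those, 7 were higher (background 8.98%) and 5 were lower (background 10.1%), with 3 and 2 at a fold of 2 or more (backgrounds 1.73% and 3.19%). The median was -0.021 over members and -0.024 over all genes, and the median size was 0.352 over members and 0.231 over all genes. Both comparisons use the PC-3 arrays. Together 20 members passed in at least 1 comparison, 28 passed in neither and 7 were too dim to test. The matching share of all genes was not counted, so these numbers only account for the members. In RNA from whole cultures, fewer cells of a type and less RNA per cell cannot be told apart.

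**Figure D1:**
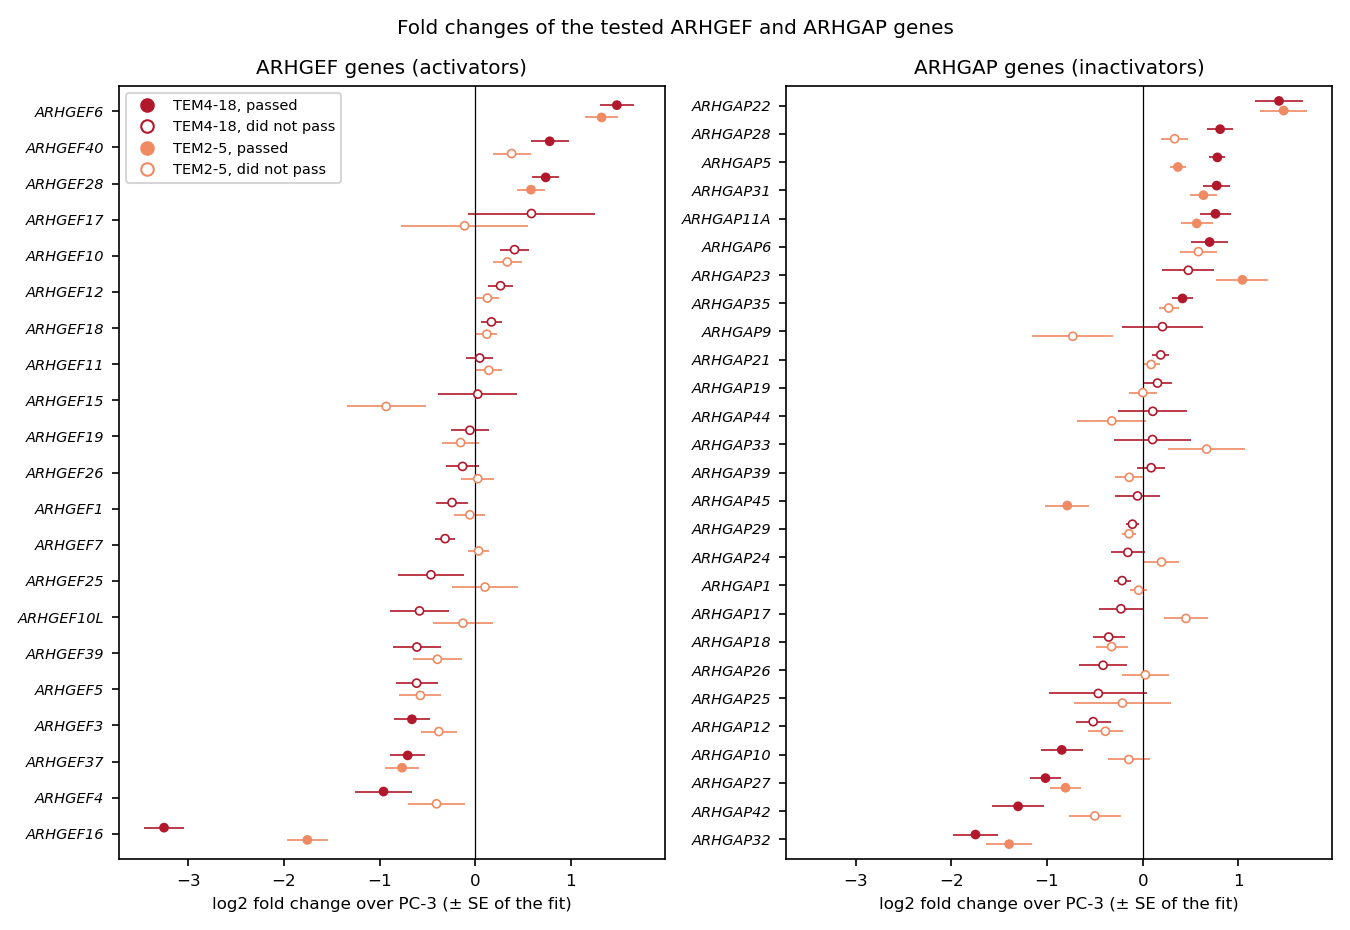
Log2 fold change over PC-3 (horizontal axis, points with the SE of the fit) of each tested ARHGEF gene (left) and ARHGAP gene (right) in TEM4-18 and TEM2-5, filled where the adjusted p was under 0.05. ARHGEF16 lies farthest to the left at -3.25 in TEM4-18 and -1.75 in TEM2-5, and ARHGEF6 and ARHGAP22 lie farthest to the right among these brightest probe sets.

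Among the exchange factors, ARHGEF16 (ephexin-4), which activates RHOG and binds the receptor EPHA2, was lower in both TEM lines. Its signal was 244 and 163 on the TEM4-18 arrays and 688 and 632 on the TEM2-5 arrays, against 2144 and 2569.5 on the PC-3 arrays. The 3 lines did not overlap, and TEM2-5 lay between the others. The log2 fold change on the log2(signal + 51.8) scale was -3.25 ± 0.21 (adjusted p = 2.35e-06) in TEM4-18 and -1.75 ± 0.21 (adjusted p = 0.000383) in TEM2-5 by limma, and the ratio of mean signals to PC-3 was 0.0862 in TEM4-18 and 0.280 in TEM2-5. Values given as higher or lower "at" are log2 fold changes on this scale, with the SE of the fit. The gene is read by 1 probe set. Both calls held under all 15 alternative settings.

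ARHGEF6 (alpha-PIX), which activates RAC1 and CDC42 and binds the kinase PAK, was higher in both TEM lines. Its signal was 2217 and 1676 on the TEM4-18 arrays and 1908 and 1553 on the TEM2-5 arrays, against 688 and 628 on the PC-3 arrays. The TEM arrays overlapped each other and all 4 lay above PC-3. The log2 fold change was 1.48 ± 0.18 (adjusted p = 0.000142) in TEM4-18 and 1.32 ± 0.18 (adjusted p = 0.00064) in TEM2-5 by limma, and both calls held under all 15 alternatives. Its paralog ARHGEF7 (beta-PIX) had 2823 and 2882 on the TEM4-18 arrays and 3849.5 and 3466 on the TEM2-5 arrays, against 3489 and 3635 on the PC-3 arrays, a log2 fold change of -0.32 ± 0.11 (adjusted p = 0.053) in TEM4-18 and 0.04 ± 0.11 (adjusted p = 0.866) in TEM2-5, neither of which passed.

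Of the other exchange factors that passed, ARHGEF28, which activates RHOA and binds focal adhesion kinase, had signals of 2276 and 2817 on the TEM4-18 arrays and 2247 and 2295 on the TEM2-5 arrays, against 1382 and 1626 on the PC-3 arrays. Its log2 fold change was 0.74 ± 0.14 (adjusted p = 0.00345) in TEM4-18 and 0.58 ± 0.14 (adjusted p = 0.0197) in TEM2-5 by limma, and of its 6 probe sets 3 passed in TEM4-18 and 2 in TEM2-5. The TEM2-5 call did not pass without PC-3 replicate 1 (adjusted p = 0.104), without TEM2-5 replicate 1 (0.0854) or without TEM2-5 replicate 2 (0.102). ARHGEF40 (Solo), a RHOA activator that binds keratin filaments, had 738 and 853 on the TEM4-18 arrays and 589 and 590.0 on the TEM2-5 arrays, against 444 and 438 on the PC-3 arrays. It was higher in TEM4-18 at 0.78 ± 0.20 (adjusted p = 0.0149), but passed neither without PC-3 replicate 2 (adjusted p = 0.0506) nor without TEM4-18 replicate 2 (0.107), and 1 of its 4 probe sets passed.

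Other exchange factors that fell were ARHGEF3, ARHGEF4 and ARHGEF37. ARHGEF3 (XPLN), an activator of RHOA and RHOB, had 2102 and 1404 on the TEM4-18 arrays and 2327 and 1894 on the TEM2-5 arrays, against 2985 and 2531 on the PC-3 arrays, with -0.66 ± 0.19 (adjusted p = 0.0251) in TEM4-18, which did not pass without PC-3 replicate 1 (adjusted p = 0.134) or without TEM4-18 replicate 2 (0.18, at a log2 fold change of -0.38). ARHGEF4 (Asef), which the tumour suppressor APC stimulates, had 302 and 207 on the TEM4-18 arrays and 422 and 366 on the TEM2-5 arrays, against 428 and 669 on the PC-3 arrays, and -0.96 ± 0.30 (adjusted p = 0.0389) in TEM4-18, which passed in 5 of 14 alternatives. With its probe sets averaged the value was -0.49 (adjusted p = 0.289). It did not pass without PC-3 replicate 2 (adjusted p = 0.244), TEM4-18 replicate 2 (0.188), TEM2-5 replicate 1 (0.0576) or TEM2-5 replicate 2 (0.0568). ARHGEF37 had 1085 and 769 on the TEM4-18 arrays and 890.1 and 862 on the TEM2-5 arrays, against 1451 and 1601 on the PC-3 arrays, all 4 TEM values below PC-3, at -0.71 ± 0.18 (adjusted p = 0.0161) in TEM4-18 and -0.76 ± 0.18 (adjusted p = 0.017) in TEM2-5. Without PC-3 replicate 2 the adjusted p was 0.0855 in TEM4-18 and 0.0932 in TEM2-5, without TEM4-18 replicate 2 it was 0.122 in TEM4-18, and without either TEM2-5 array it was 0.0726 and 0.0896 in TEM2-5. Neither ARHGEF37 call passed with its probe sets averaged or without the variance trend. In TEM2-5, ARHGEF3 had -0.38 ± 0.19 (adjusted p = 0.21), ARHGEF4 -0.40 ± 0.30 (adjusted p = 0.421) and ARHGEF40 0.38 ± 0.20 (adjusted p = 0.235), none of which passed.

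The GAPs included ARHGAP32 (p250GAP, also RICS), which acts on RHOA, RAC1 and CDC42 in neurons, and it was lower in both lines. Its signal was 232 and 339 on the TEM4-18 arrays and 391 and 356 on the TEM2-5 arrays, against 1076 and 1057 on the PC-3 arrays. All 4 TEM values lay below the PC-3 pair. The log2 fold change was -1.75 ± 0.24 (adjusted p = 0.000366) in TEM4-18 and -1.40 ± 0.24 (adjusted p = 0.0029) in TEM2-5 by limma, held under all 15 alternatives. All 4 tested probe sets had log2 fold changes below 0, and 3 passed in TEM4-18 and 2 in TEM2-5.

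ARHGAP27 (CAMGAP1), a RAC1 and CDC42 GAP tied to clathrin-mediated endocytosis, had signals of 844 and 1083 on the TEM4-18 arrays and 1209 and 1027 on the TEM2-5 arrays, against 1986 and 1989 on the PC-3 arrays. The PC-3 pair stood above all TEM arrays. It was lower at -1.02 ± 0.16 (adjusted p = 0.00109) in TEM4-18 and -0.81 ± 0.16 (adjusted p = 0.0075) in TEM2-5, with 3 of 3 probe sets passing in TEM4-18 and 1 of 3 in TEM2-5. The TEM2-5 call did not pass without TEM2-5 replicate 2 (adjusted p = 0.0691), and with all its probe sets averaged, which includes dim ones, neither call passed (-0.67, adjusted p = 0.0786 in TEM4-18 and -0.49, 0.219 in TEM2-5). ARHGAP42 (GRAF3), which restrains RHOA in smooth muscle, had 260.1 and 435 on the TEM4-18 arrays and 618 and 637 on the TEM2-5 arrays, against 733 and 1124 on the PC-3 arrays. Its log2 fold change was -1.30 ± 0.27 (adjusted p = 0.00522) in TEM4-18, which did not pass without PC-3 replicate 2 (adjusted p = 0.0509), and -0.50 ± 0.27 (adjusted p = 0.258) in TEM2-5.

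ARHGAP10 (GRAF2) belongs to the same subfamily, with signals of 512 and 434 on the TEM4-18 arrays and 934 and 683 on the TEM2-5 arrays, against 796 and 992 on the PC-3 arrays. The TEM4-18 pair was lowest and TEM2-5 overlapped PC-3. The log2 fold change was -0.85 ± 0.22 (adjusted p = 0.0154) in TEM4-18, without PC-3 replicate 2 the adjusted p was 0.1, and without TEM4-18 replicate 2 it was 0.0844. The third GRAF gene, ARHGAP26, had -0.41 ± 0.25 (adjusted p = 0.264) in TEM4-18 and 0.03 ± 0.25 (adjusted p = 0.962) in TEM2-5 and passed in neither. Of the 3 GRAF genes, 2 were lower in TEM4-18 (background 16.0%) and 0 passed in TEM2-5 (background 10.1% lower), where limma also gave 0 at an unadjusted p under 0.05. Between TEM4-18 and TEM2-5, limma gave 0 of 3, with 2 at an unadjusted p under 0.05, so no difference between the lines was shown for them. ARHGAP45 (HMHA1) passed as lower in TEM2-5 and not in TEM4-18, though TEM4-18 against TEM2-5 gave no call (adjusted p = 0.191), at -0.79 ± 0.23 (adjusted p = 0.0419), with signals of 568 and 634 on the TEM4-18 arrays and 335 and 345 on the TEM2-5 arrays, against 729 and 536 on the PC-3 arrays. It passed in 5 of 14 alternatives and had an adjusted p of 0.216 without PC-3 replicate 1, 0.0551 and 0.0592 without TEM4-18 replicates 1 and 2, and 0.147 and 0.134 without TEM2-5 replicates 1 and 2. With its probe sets averaged the value was -0.31 (adjusted p = 0.392).

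ARHGAP22, a RAC1 GAP, was higher in both lines on its brightest probe set. Its signal was 827 and 636 on the TEM4-18 arrays and 801 and 707 on the TEM2-5 arrays, against 287 and 196 on the PC-3 arrays. The PC-3 pair lay below every TEM value. The log2 fold change was 1.42 ± 0.25 (adjusted p = 0.00169) in TEM4-18 and 1.47 ± 0.25 (adjusted p = 0.00257) in TEM2-5 by limma. Its second tested probe set gave 0.02 (adjusted p = 0.975) and 0.35 (0.522), and with the probe sets averaged neither call passed, at 0.50 (0.243) and 0.64 (0.179). The related ARHGAP24 (FilGAP) and ARHGAP25 did not pass in either comparison. ARHGAP23 had 910.0 and 797 on the TEM4-18 arrays and 1775 and 927 on the TEM2-5 arrays, against 514 and 694 on the PC-3 arrays, with 0.48 ± 0.27 (adjusted p = 0.241) in TEM4-18 and 1.04 ± 0.27 (adjusted p = 0.0253) in TEM2-5, and with the first TEM2-5 array far above the second. Without that array the value was 0.59 (adjusted p = 0.208), without PC-3 replicate 1 it was 0.84 (0.124), and 1 of its 4 probe sets passed. With its probe sets averaged the TEM2-5 value was 0.22 (adjusted p = 0.523).

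**Figure D2:**
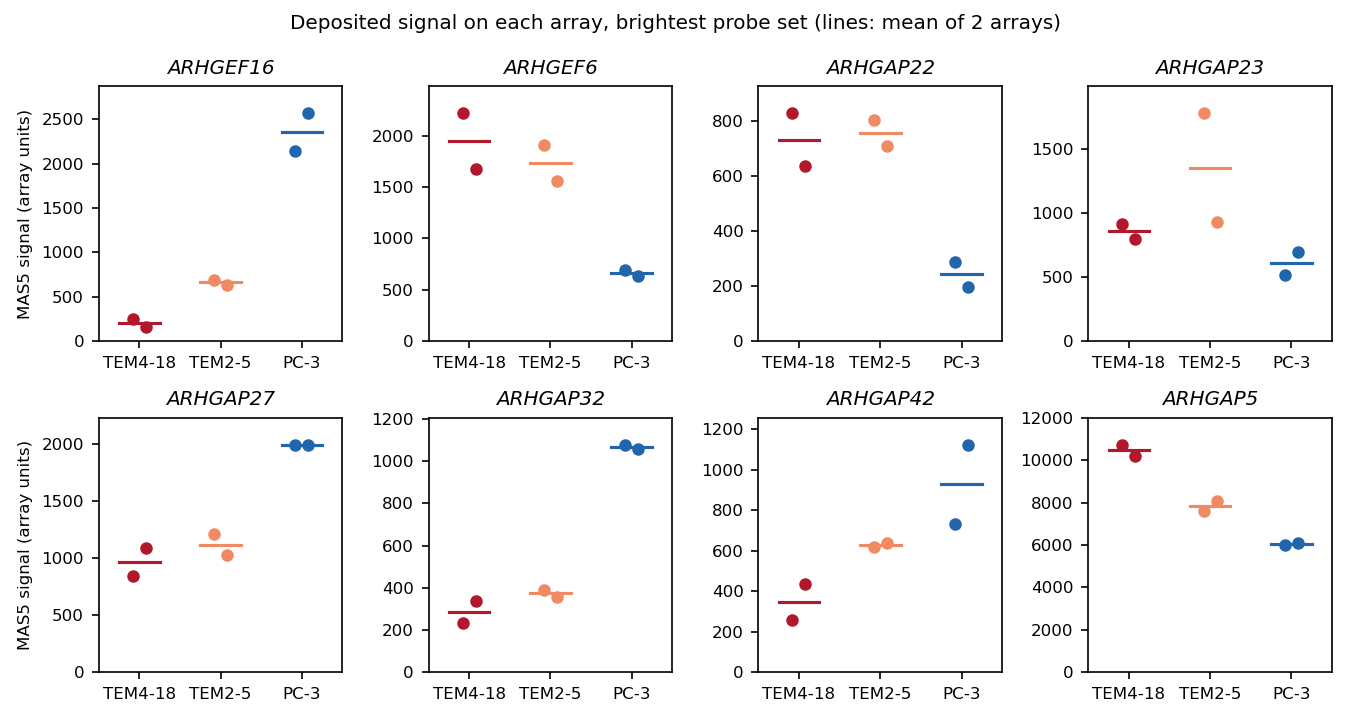
Deposited MAS5 signal (vertical axis, array units) of 8 genes on each array, with TEM4-18, TEM2-5 and PC-3 from left to right and a line at the mean of 2 arrays. ARHGEF16 and ARHGAP32 were lowest in TEM4-18, ARHGEF6 and ARHGAP22 were above PC-3 on all 4 TEM arrays, and the ARHGAP23 signal of 1775 on the first TEM2-5 array stood above the other 5.

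The p190 GAPs restrain RHOA, and both passed as higher in TEM4-18 on their brightest probe sets (background 13.3%). ARHGAP5 (p190-B) had 10721 and 10194 on the TEM4-18 arrays and 7599.7 and 8092 on the TEM2-5 arrays, against 6014 and 6115 on the PC-3 arrays. The lines did not overlap. Its log2 fold change was 0.78 ± 0.08 (adjusted p = 7.2e-05) in TEM4-18 and 0.37 ± 0.08 (adjusted p = 0.0135) in TEM2-5 by limma, and of its 4 tested probe sets 4 passed in TEM4-18 and 3 in TEM2-5, at log2 fold changes of 0.71 to 2.08 for the other 3 in TEM4-18. The TEM2-5 call did not pass without PC-3 replicate 1 (adjusted p = 0.0563) or without TEM2-5 replicate 2 (0.101). ARHGAP35 (p190-A) had 5360.5 and 5379 on the TEM4-18 arrays and 4809 and 4898 on the TEM2-5 arrays, against 4365 and 3686 on the PC-3 arrays, with 0.42 ± 0.11 (adjusted p = 0.0147) in TEM4-18. Its other 4 probe sets did not pass, the value with all probe sets averaged was -0.027 (adjusted p = 0.919), and it did not pass without PC-3 replicate 2 (0.106), TEM4-18 replicate 1 (0.0598) or TEM4-18 replicate 2 (0.0636).

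ARHGAP31 (CdGAP), which acts on CDC42 and RAC1, had signals of 1795 and 1837 on the TEM4-18 arrays and 1594 and 1698 on the TEM2-5 arrays, against 1112 and 974 on the PC-3 arrays. It was higher at 0.77 ± 0.14 (adjusted p = 0.0021) in TEM4-18 and 0.63 ± 0.14 (adjusted p = 0.0109) in TEM2-5 by limma. The TEM2-5 value did not pass without PC-3 replicate 2 (adjusted p = 0.0661) or TEM2-5 replicate 2 (0.083). ARHGAP28, a RHOA GAP, had 1969 and 1955 on the TEM4-18 arrays and 1506 and 1296 on the TEM2-5 arrays, against 1105 and 1090.3 on the PC-3 arrays and was higher at 0.81 ± 0.14 (adjusted p = 0.00164) in TEM4-18, with both probe sets passing. With its probe sets averaged the adjusted p was 0.0885. In TEM2-5 it had 0.33 ± 0.14 (adjusted p = 0.137).

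ARHGAP11A, a RHOA GAP of dividing cells, had 1423 and 1701 on the TEM4-18 arrays and 1224 and 1493 on the TEM2-5 arrays, against 955 and 843 on the PC-3 arrays. Its log2 fold change was 0.76 ± 0.17 (adjusted p = 0.00655) in TEM4-18 and 0.56 ± 0.17 (adjusted p = 0.0417) in TEM2-5. The TEM4-18 call did not pass without TEM4-18 replicate 2 (adjusted p = 0.0589), and the TEM2-5 call did not pass without either PC-3 array (0.0655 and 0.172) or either TEM2-5 array (0.0632 and 0.256). ARHGAP6, another RHOA GAP, had 1162 and 911 on the TEM4-18 arrays and 1019.8 and 876 on the TEM2-5 arrays, against 678 and 556 on the PC-3 arrays and was higher at 0.70 ± 0.19 (adjusted p = 0.0222) in TEM4-18. That value did not pass without PC-3 replicate 2 (0.113) or TEM4-18 replicate 1 (0.157), and with its probe sets averaged it was 0.09 (0.881). In TEM2-5 ARHGAP6 had 0.58 ± 0.19 (adjusted p = 0.0673).

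Probe sets of 1 gene often differed in call. Of the 18 members that passed in TEM4-18, 11 have several tested probe sets, and in 3 of these every probe set passed. Of the 12 in TEM2-5, 9 have several and in 0 did every probe set pass. ARHGAP31 and ARHGEF37 passed on 1 of 2 in each comparison, ARHGEF4 on 1 of 2 in TEM4-18 and ARHGAP45 on 1 of 2 in TEM2-5. ARHGAP29, a RHOA GAP downstream of RAP1, had 37498 and 37700.0 on the TEM4-18 arrays and 37822 and 35608 on the TEM2-5 arrays, against 43074 and 38110.0 on the PC-3 arrays on its brightest probe set and did not pass there (-0.11, adjusted p = 0.314 in TEM4-18). Its other 3 tested probe sets gave log2 fold changes of -0.87 (adjusted p = 0.0437), 0.57 (0.0215) and 0.27 (0.612) in TEM4-18. In TEM2-5 the first of these also passed, at -0.93 (0.0482), and the others gave 0.23 (0.378) and 0.38 (0.49). ARHGEF12 (LARG), a RHOA activator that G proteins stimulate, had 0.26 (0.16) on its brightest probe set and -0.79 (0.00772) on another in TEM4-18.

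**Figure D3:**
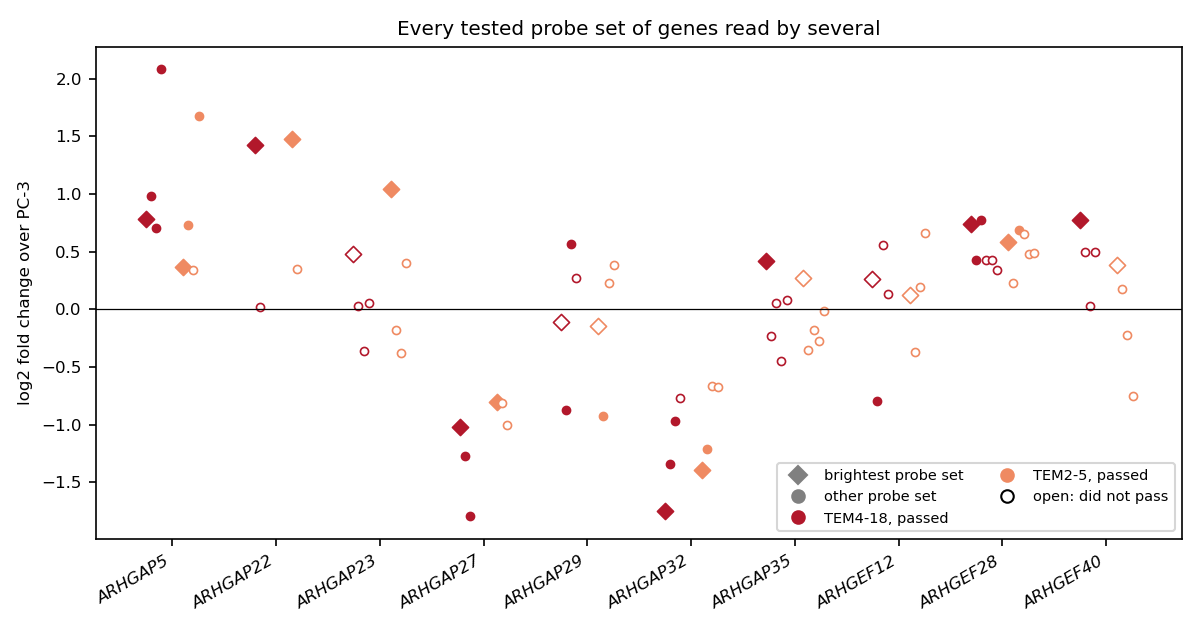
Log2 fold change over PC-3 (vertical axis) of every tested probe set of 10 members, with TEM4-18 left of TEM2-5 within each gene, diamonds for the brightest probe set and filled marks for those that passed. The 4 ARHGAP5 probe sets lie above 0 and the 4 ARHGAP32 probe sets lie below 0. The ARHGAP23, ARHGAP29, ARHGAP35 and ARHGEF12 probe sets lie on both sides, as do those of ARHGEF40 in TEM2-5.

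In mean signal, the brightest members in PC-3 were ARHGAP29 (40592 ± 3510, SD, n = 2), ARHGEF18 (9913 ± 1062), ARHGEF12 (8710 ± 1810), ARHGAP1 (7480 ± 402) and ARHGAP5 (6065 ± 71.1). Brightness depends on the probes, so no order of transcript levels follows. ARHGEF18, a RHOA activator of epithelial junctions, had 10018 and 12352 on the TEM4-18 arrays and 10593 and 10939 on the TEM2-5 arrays, against 9163 and 10664 on the PC-3 arrays. ARHGAP1, a CDC42 and RHOA GAP, had 6623 and 6241 on the TEM4-18 arrays and 7435 and 7082 on the TEM2-5 arrays, against 7196 and 7765 on the PC-3 arrays. Neither passed, and in TEM4-18 their log2 fold changes were 0.17 ± 0.11 (adjusted p = 0.309) and -0.22 ± 0.09 (adjusted p = 0.104). The GEFs with an RGS domain, ARHGEF1, ARHGEF11 and ARHGEF12, passed in neither comparison on their brightest probe sets (backgrounds 29.3% and 19.0%). At an unadjusted p under 0.05 limma gave 0 of 3 in each, against 5494 and 4486 of 13621 genes. With 3 genes, it does not follow that this group was stable. On its brightest probe set ARHGEF15, a GEF known from endothelial cells, had 343 and 277 on the TEM4-18 arrays and 199 and 85.8 on the TEM2-5 arrays, against 382 and 237 on the PC-3 arrays, with overlap of TEM4-18 and PC-3. Its other tested probe set had 82.9 and 214 on the TEM4-18 arrays and 190 and 305 on the TEM2-5 arrays, against 352 and 337 on the PC-3 arrays. There limma gave -1.07 ± 0.42 (adjusted p = 0.0931) in TEM4-18 and -0.43 ± 0.42 (adjusted p = 0.556) in TEM2-5, and neither passed.

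The other tested members that passed in neither comparison were ARHGAP9, ARHGAP12, ARHGAP17, ARHGAP18, ARHGAP19, ARHGAP21, ARHGAP33, ARHGAP39, ARHGAP44, ARHGEF5, ARHGEF10, ARHGEF10L, ARHGEF17, ARHGEF19, ARHGEF25, ARHGEF26 and ARHGEF39. Members that did not pass lay between -0.61 and 0.59 in TEM4-18 and between -0.93 and 0.67 in TEM2-5. Standard errors of members were 0.071 to 0.666, so modest changes were not detectable for the noisier genes. ARHGEF5, an activator related to ARHGEF16, had -0.61 ± 0.22 (adjusted p = 0.0643) in TEM4-18. ARHGAP20, ARHGAP22-IT1, ARHGAP30, ARHGAP36, ARHGAP4, ARHGEF33 and ARHGEF38 had signals of 5.92 to 329 on single arrays and were not tested.

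Between the TEM lines, 2 of 48 members (4.17%) differed, against 2.75% of all genes. ARHGEF16 was lower in TEM4-18 than in TEM2-5, at a log2 difference of -1.50 ± 0.21 (adjusted p = 0.005), and ARHGAP5 was higher in TEM4-18, at 0.41 ± 0.08 (adjusted p = 0.0369) by limma. The backgrounds were 2.26% lower and 0.492% higher. ARHGEF16 was the member past 2-fold, against backgrounds of 1.38% lower and 0.0661% higher. ARHGAP5 differed on 1 of its 4 tested probe sets. Neither difference passed without the variance trend, and the ARHGAP5 difference also did not pass without the filter or with its probe sets averaged. The ARHGEF16 difference did not pass without TEM2-5 replicate 1 (adjusted p = 0.0625), and the ARHGAP5 difference did not pass without either TEM4-18 array (0.168 and 0.12) or either TEM2-5 array (0.263 and 0.123). The other members that passed in 1 TEM line alone, among them ARHGAP42, ARHGAP10 and ARHGAP28, did not pass the test between the lines (adjusted p = 0.23, 0.18 and 0.151).

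Regulators outside the ARHGAP and ARHGEF symbols were read from lists of the same pathway. Of 36 tested other GEFs, 5 were higher and 5 lower in TEM4-18, and 5 and 3 in TEM2-5, with median log2 fold changes of 0.155 and 0.116, against -0.038 and -0.024 over all genes. That is 27.8% past the threshold in TEM4-18 and 22.2% in TEM2-5, near the 29.3% and 19.0% of all tested genes. PREX1, a RAC activator that responds to PIP3 and G-protein beta-gamma, had 3626 and 4318 on the TEM4-18 arrays and 3421 and 3388 on the TEM2-5 arrays, against 638 and 726 on the PC-3 arrays. It was higher at 2.45 ± 0.13 (adjusted p = 6.47e-07) in TEM4-18 and 2.24 ± 0.13 (adjusted p = 5.02e-06) in TEM2-5 by limma. FGD4 (frabin), a CDC42 activator, had 7.02 and 9.29 on the TEM4-18 arrays and 177 and 167 on the TEM2-5 arrays, against 390.3 and 411 on the PC-3 arrays and was lower at -2.92 ± 0.49 (adjusted p = 0.00145) in TEM4-18, where both values lay under the pseudocount. In TEM2-5 FGD4 had -1.01 ± 0.49 (adjusted p = 0.203). PLEKHG6 (MyoGEF), a RHOA activator, was lower at -1.46 ± 0.29 (adjusted p = 0.00388) in TEM4-18 and had -0.92 ± 0.29 (adjusted p = 0.0554) in TEM2-5. FGD6 was lower at -1.17 ± 0.16 (adjusted p = 0.000329) in TEM4-18 and -0.81 ± 0.16 (adjusted p = 0.00593) in TEM2-5.

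Of 24 tested other GAPs, 4 were higher and 3 lower in TEM4-18, and 4 and 2 in TEM2-5, with medians of 0.005 and 0.032. These were 29.2% and 25% of the list, against 29.3% and 19.0% of all tested genes. DLC1, a RHOA GAP and tumour suppressor, had 269 and 172 on the TEM4-18 arrays and 523 and 785 on the TEM2-5 arrays, against 1375 and 1512 on the PC-3 arrays. The 3 lines did not overlap. It was lower at -2.48 ± 0.25 (adjusted p = 5.31e-05) in TEM4-18 and -1.11 ± 0.25 (adjusted p = 0.0141) in TEM2-5, and the lines differed by -1.37 ± 0.25 (adjusted p = 0.0238). Its paralog STARD8 (DLC3) was lower at -1.63 ± 0.43 (adjusted p = 0.0182) in TEM4-18 and had -1.39 ± 0.43 (adjusted p = 0.0526) in TEM2-5. DEPDC1B, which carries a GAP domain, was higher at 1.17 ± 0.12 (adjusted p = 4.25e-05) in TEM4-18 and 0.86 ± 0.12 (adjusted p = 0.000715) in TEM2-5.

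The DOCK family, GEFs of another fold together with their ELMO partners, had 8 of 10 tested genes past the threshold in TEM4-18, 5 higher and 3 lower, and 3 in TEM2-5, all higher, with medians of 0.396 and 0.340. The shares were 80% and 30%, against 29.3% and 19.0% of all tested genes, in a list of 10. DOCK1, a RAC1 activator, had 2136 and 2151 on the TEM4-18 arrays and 1186 and 1183 on the TEM2-5 arrays, against 717 and 546 on the PC-3 arrays. Its lines did not overlap, and it was higher at 1.70 ± 0.16 (adjusted p = 3.36e-05) in TEM4-18, 0.87 ± 0.16 (adjusted p = 0.00497) in TEM2-5 and 0.83 ± 0.16 (adjusted p = 0.0318) between the TEM lines by limma. ELMO3 was lower at -1.12 ± 0.34 (adjusted p = 0.0336) in TEM4-18 and had -0.10 ± 0.34 (adjusted p = 0.882) in TEM2-5.

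The GTPases themselves and their GDIs had 4 of 21 higher and 3 lower in TEM4-18, and 1 and 2 in TEM2-5, with medians of -0.056 and 0.067. Their shares, 33.3% and 14.3%, stood beside 29.3% and 19.0% of all tested genes. RHOV, an atypical CDC42 relative, was lower at -1.04 ± 0.32 (adjusted p = 0.0367) in TEM4-18 and had -0.72 ± 0.32 (adjusted p = 0.164) in TEM2-5. Of 46 tested effectors, 6 were higher and 8 lower in TEM4-18, and 3 and 7 in TEM2-5, with medians of 0.065 and 0. The effectors' shares of 30.4% and 21.7% were near those of all tested genes, 29.3% and 19.0%. MYLK, which phosphorylates myosin light chain, had 3439 and 3568 on the TEM4-18 arrays and 1864 and 1937 on the TEM2-5 arrays, against 611 and 631 on the PC-3 arrays. It was higher at 2.40 ± 0.13 (adjusted p = 5.71e-07) in TEM4-18 and 1.54 ± 0.13 (adjusted p = 3.71e-05) in TEM2-5, and the lines differed by 0.86 ± 0.13 (adjusted p = 0.00642). PAK6, a kinase bound by CDC42, was lower at -2.45 ± 0.17 (adjusted p = 3.01e-06) in TEM4-18 and -1.60 ± 0.17 (adjusted p = 0.000147) in TEM2-5, and CYFIP2, a WAVE complex subunit, at -1.41 ± 0.18 (adjusted p = 0.000207) and -1.56 ± 0.18 (adjusted p = 0.000238). DIAPH2, a formin, was lower at -1.31 ± 0.21 (adjusted p = 0.000923) in TEM4-18 and -0.82 ± 0.21 (adjusted p = 0.0214) in TEM2-5. CDC42EP3 was lower at -1.22 ± 0.11 (adjusted p = 2.65e-05) in TEM4-18 and -0.88 ± 0.11 (adjusted p = 0.000559) in TEM2-5. The formin FMNL1 was lower at -1.52 ± 0.46 (adjusted p = 0.0473) in TEM2-5, and had -1.12 ± 0.46 (adjusted p = 0.103) in TEM4-18.

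**Figure D4:**
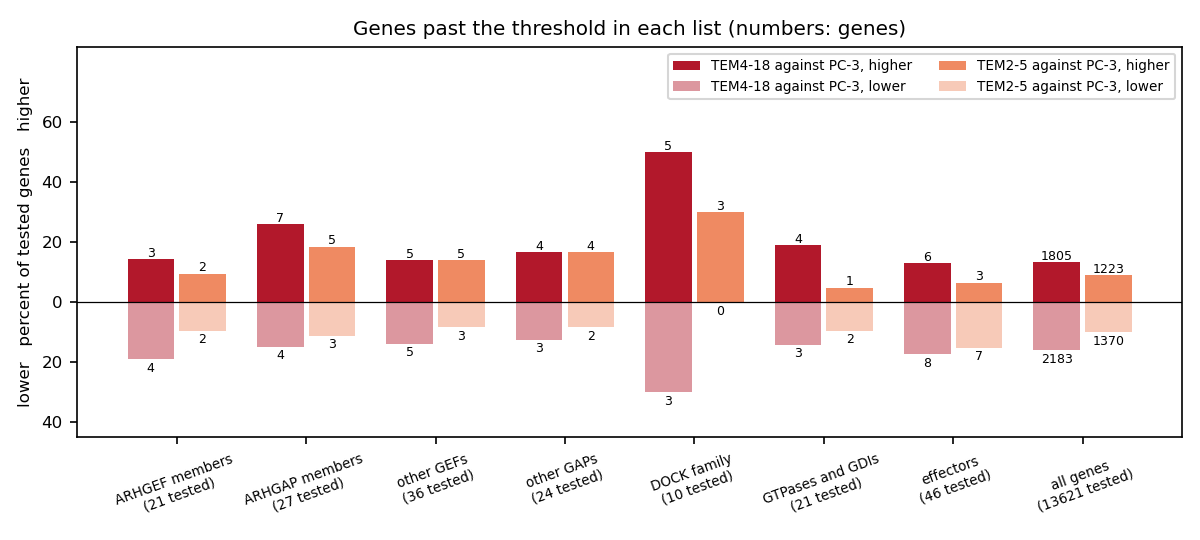
Percent of tested genes past the threshold in each list (vertical axis, higher upward and lower downward from 0), with TEM4-18 left of TEM2-5 and the count of genes at each bar. The DOCK family had 5 genes higher and 3 lower in TEM4-18, and the bars of all genes at the right stand for 13621 tested genes.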

How the data were processed

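Total RNA of TEM4-18, TEM2-5 and PC-3 was measured on 6 arrays, 2 per line. The deposited values are linear signal intensities per probe set, made by the authors with MAS5 per the submitters' processing notes, at a version not given in the sources used here. Their trimmed mean was 1500.17 to 1500.18 on every array, so they were not normalized again. Arrays carry no read depth, and their number limits the precision.

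The deposited intensities were taken to log2(value + 51.8), the 20th percentile. Probe sets with a mean above 174, the 40th percentile, were kept (32768 of 54675, without 62 controls). The platform annotation gave 41097 probe sets 1 symbol, 1801 several and 11777 none. limma 3.58.1 in R 4.3.3 fitted 3 line means to all 6 arrays (3 residual degrees of freedom, median residual SD 0.17), with eBayes and a trend, and two-sided p-values were adjusted by Benjamini-Hochberg across every probe set tested, at a threshold of 0.05. Errors are standard errors for fold changes and SDs for signals. The fold on this scale understates changes of dim genes. The procedure was tested on simulated data with independent normal noise, which cannot show how it handles effects shared between arrays.

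The members and lists were chosen with earlier results of these data known. By rule, members past the threshold at a fold of 2 or more are given with every array's signal, other called members with their log2 fold changes, and the 5 brightest members, members whose probe sets differ in call, and up to 4 called genes per list, direction and comparison at a fold of 2 or more are named. Alternatives changed the pseudocount, filter, normalization, variance trend, probe set rule, samples, replicate block or left out an array.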

Additional observations from a re-analysis of the deposited data

Results flagged for a closer look

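ARHGEF16 had a log2 difference of -1.50 between TEM4-18 and TEM2-5, and ARHGAP5 one of 0.41. Both are listed because limma's test of the difference between the lines' changes over PC-3 passed (adjusted p = 0.005 and 0.0369).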

How the results depend on the processing

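Under the 15 alternatives, ARHGEF16, ARHGEF6 and ARHGAP32 passed throughout in both comparisons with PC-3, and ARHGAP5, ARHGAP31 and ARHGEF28 did in TEM4-18. The other 12 of 18 calls in TEM4-18 and 9 of 12 in TEM2-5 were lost in at least 1. With all probe sets of a gene averaged, which left 42 members tested, 9 members passed in TEM4-18, 7 in TEM2-5 and 1 between the TEM lines, and ARHGAP35 turned to -0.027 in TEM4-18. Without the variance trend 5 passed in TEM2-5 and 0 between the TEM lines by limma, with 10 at an unadjusted p under 0.05, and without the filter 1 passed between them. Calls lost without the trend were ARHGAP6, ARHGAP10, ARHGAP35, ARHGEF3, ARHGEF4 and ARHGEF37 in TEM4-18. In TEM2-5 they were ARHGAP5, ARHGAP11A, ARHGAP23, ARHGAP27, ARHGAP45, ARHGEF28 and ARHGEF37. Calls lost without the filter were ARHGAP6, ARHGEF3 and ARHGEF4 in TEM4-18, and ARHGAP11A, ARHGAP23 and ARHGAP45 in TEM2-5. Leaving out 1 array at a time gave 12 to 18 members in TEM4-18, 5 to 11 in TEM2-5 and 0 to 2 between the TEM lines, the 0 being without TEM2-5 replicate 1, where 8 had an unadjusted p under 0.05. In TEM2-5 the count was 7 without TEM2-5 replicate 1 and 5 without TEM2-5 replicate 2. A line left with 1 array was assumed to vary like the others. With the replicate number as a block, 20, 13 and 2 members passed. Deviations of same-numbered arrays correlated weakly, at 0.062, 0.08 and 0.098 between lines. A correlation over probe sets cannot show a shift common to all of them. Median signals were higher on replicate 1 than on replicate 2 in every line. They were 316.9 and 282.3 for PC-3, 295.5 and 266.9 for TEM4-18, and 309.8 and 281.4 for TEM2-5. The source of this shift was not tested. The labels do not say whether the numbers pair the arrays, and weak correlations cannot decide it, since a small shared effect could remain. The causes of these losses were not tested, and genes outside the ARHGAP and ARHGEF symbols were not run under the alternatives.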
